A study of Rattus norvegicus with 42 samples.

Results

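The 8 genes described here, Pax2, Wt1, Sall1, Eya1, Meox1, Gdnf, Crym and Tmem100, are regulators and markers of nephron progenitors. They were taken by gene symbol from the platform's probe table and are 8 of the 14218 genes that a probe set names alone. Each gene was followed through the probe set with the highest mean over all arrays. All 8 passed the filter on low values, which asks that a gene's highest group mean exceed log2 5.79. In 21 of 21 groups the mean of 7 of the genes lay above that threshold, and for Gdnf this held in 17 of 21 groups.

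Metanephric mesenchyme was dissected from rat embryos at day 13.5 and freed of the ureteric bud with trypsin, DNase and fine pins. RNA of 42 samples, 2 biological replicates in each of 21 groups, was hybridised to Affymetrix Rat Genome arrays. The groups were fresh tissue, uninduced culture on days 1 and 2, and culture with LIF (leukemia inhibitory factor), NGAL (neutrophil gelatinase-associated lipocalin) or the ANX fraction on days 1, 2, 3, 4, 5 and 7. Every cultured group, controls included, grew on collagen-coated filters in DMEM/F12 with insulin, transferrin, selenium, dexamethasone, prostaglandin, the thyroid hormone T3, an FGF and a TGF. Strain, doses of the inducers and the makeup of the ANX fraction are not given in the sources used here. Since uninduced cultures were taken on days 1 and 2 alone, no later day has a control of its own age.

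Nephron progenitors are the cells of the metanephric mesenchyme that gather as a cap around the tips of the ureteric bud. They either renew or turn into epithelial vesicles when a tissue such as the bud induces them. Eya1, a transcriptional co-activator and phosphatase, acts early in the mesenchyme. Pax2, Sall1 and Wt1 are transcription factors that the mesenchyme needs to survive or to attract the bud. Gdnf is the growth factor that the mesenchyme secretes and that the bud senses through the receptor RET. Pax2 is also made in the first epithelial vesicles, and Wt1 is later kept in podocytes, the filter cells of the glomerulus.

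All levels below are log2 of the deposited intensity, with replicate 1 before replicate 2. A level belongs to 1 probe set and was not set against the level of another gene. In whole explants, fewer cells of a type and less RNA per cell cannot be told apart. The progenitor identity of the samples rests on these genes and on a list of 25 other progenitor genes, of which 16 could be tested. The defining factors Six2, Cited1 and Osr1 were not matched to a probe set that names them alone and are not analysed here. The mean level of the 16 progenitor genes ranged from 8.04 to 8.63 over the 42 arrays and was 8.42 and 8.44 in fresh tissue.

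The RefSeq promoter table of the rat assembly GRCr8 held 3 of the 8 genes, each with the 250 bases before the gene's start. These 3 are shown because the table held no other gene of the 8. The group means of Wt1 and Gdnf ran alike (r 0.817 over 21 groups) and those of Pax2 less so (0.336 and 0.335). Whether the windows had a part in this was not tested. Capitals mark the core promoter motif found, a GC box in Pax2 and a TATA box in Gdnf; the windows lie at chr1:253565672-253565921, chr3:112021759-112022008 and chr2:58621077-58621326, all on the plus strand.
Pax2: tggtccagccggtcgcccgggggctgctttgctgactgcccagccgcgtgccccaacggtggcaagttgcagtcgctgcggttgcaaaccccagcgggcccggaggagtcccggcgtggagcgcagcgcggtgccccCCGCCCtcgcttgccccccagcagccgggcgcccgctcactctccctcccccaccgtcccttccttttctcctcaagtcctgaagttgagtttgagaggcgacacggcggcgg
Wt1: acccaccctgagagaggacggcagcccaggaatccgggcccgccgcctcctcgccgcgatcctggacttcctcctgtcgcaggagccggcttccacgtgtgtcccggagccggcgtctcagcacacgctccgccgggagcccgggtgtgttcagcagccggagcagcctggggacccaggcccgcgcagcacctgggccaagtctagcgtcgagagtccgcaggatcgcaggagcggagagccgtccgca
Gdnf: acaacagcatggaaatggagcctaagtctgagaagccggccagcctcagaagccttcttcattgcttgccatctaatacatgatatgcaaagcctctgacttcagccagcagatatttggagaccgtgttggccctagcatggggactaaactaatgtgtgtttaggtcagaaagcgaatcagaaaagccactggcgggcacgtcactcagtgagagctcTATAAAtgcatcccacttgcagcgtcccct

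The windows of Pax2 and Wt1 held 71.2% and 71.6% G and C bases with 25 and 27 CpG dinucleotides. The window of Gdnf held 49.6% with 6 CpG, close to the medians of 51.2% and 5 over 33469 promoters. A search on both strands covered the TATA box (TATAAA, in 12.93% of all promoters), the CCAAT box (CCAAT, 34.02%) and the GC box (GGGCGG, 30.47%). It also covered a STAT site (TTCNNNGAA, 7.67%) and a TCF/LEF site (CTTTGAT, 3.15%). Gdnf held the TATA box at bases -30 to -25 from the start and Pax2 held the GC box, read as CCGCCC, at -113 to -108. No other match to these 5 motifs was found, which says only that these letters are not in the 3 windows.

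Pax2, a paired-box transcription factor of the mesenchyme and of early nephron epithelium, was low early in culture and high late. Fresh tissue had 8.76 and 8.53, and uninduced cultures had 7.22 and 7.28 on day 1 and 7.49 and 7.24 on day 2, so that all 4 control arrays lay below both fresh arrays. The LIF cultures had 8.82 and 8.13 on day 1, 8.02 and 7.63 on day 2, 7.70 and 7.88 on day 3, 8.45 and 8.87 on day 4, 8.46 and 9.39 on day 5, and 9.03 and 9.49 on day 7. The NGAL cultures had 7.57 and 8.46 on day 1, 6.83 and 7.36 on day 2, 6.75 and 7.92 on day 3, 7.82 and 8.13 on day 4, 8.80 and 9.24 on day 5, and 7.71 and 9.65 on day 7. Under each inducer the lowest group mean fell on day 2 or 3, and the 3 highest means of the series were those of ANX and LIF on day 7 and ANX on day 5. The ANX cultures had 8.59 and 8.002 on day 1, 7.31 and 7.27 on day 2, 8.39 and 8.56 on day 3, 8.90 and 9.06 on day 4, 8.92 and 9.53 on day 5, and 9.66 and 9.07 on day 7. These values had no overlap between days 1 and 2 and days 5 and 7 under ANX, while a single NGAL array, replicate 1 of day 7, dropped back into the early range.

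In the fit over all genes, Pax2 fell by 1.28 on the log2 scale on day 2 without inducer (SE 0.45, adjusted p = 0.0420). That call was lost whenever any 1 of the 4 arrays was left out (changes from -1.41 to -1.16, adjusted p up to 0.187). On day 1 the difference was -1.40 (SE 0.45) with adjusted p = 0.0646. From days 1 and 2 to days 5 and 7, Pax2 rose 2.83-fold under ANX (log2 change 1.499, SE 0.32, adjusted p = 0.00210) and 2.46-fold under NGAL (1.30, SE 0.32, adjusted p = 0.00827). Under LIF the same difference was 0.94 (SE 0.32, adjusted p = 0.0635). The rise under NGAL was lost without replicate 1 of day 1, replicate 1 of day 2 or replicate 2 of day 7 (lowest change 0.81, adjusted p up to 0.0585), while that under ANX held in 8 of 8 such fits. With day 7 set against day 1 alone neither was called, at 1.07 under ANX (adjusted p = 0.119) and 0.67 under NGAL (adjusted p = 0.329). The NGAL rise also missed the threshold when only the arrays compared were fitted (adjusted p = 0.143). The LIF difference passed without replicate 1 of day 5 (1.18, adjusted p = 0.0446).

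Wt1, a zinc-finger factor without which the mesenchyme dies, was highest in fresh tissue and lower in every cultured group. Fresh tissue had 11.44 and 11.33, above all 40 cultured arrays. Uninduced cultures had 10.02 and 11.04 on day 1 and 9.998 and 9.84 on day 2. With LIF the arrays read 11 and 10.65 on day 1, 10.96 and 10.39 on day 2, 10.003 and 10.44 on day 3, 10.57 and 10.13 on day 4, 10.51 and 10.55 on day 5, and 10.27 and 10.33 on day 7. Here every array from day 3 on lay below both arrays of day 1. With NGAL the arrays read 10.69 and 11.24 on day 1, 9.96 and 10.36 on day 2, 9.67 and 10.51 on day 3, 9.46 and 10.12 on day 4, 10.26 and 10.34 on day 5, and 9.12 and 10.49 on day 7. With ANX the arrays read 10.97 and 10.96 on day 1, 11.13 and 10.41 on day 2, 10.84 and 10.15 on day 3, 10.999 and 10.85 on day 4, 11.14 and 11.13 on day 5, and 11.23 and 10.47 on day 7. On days 4 and 5 both ANX arrays lay above both NGAL arrays, and 3 of the 6 days showed such a gap in all. Between LIF and ANX, where Wt1 was not called over the 6 days, 3 days showed a gap as well.

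Wt1 fell 2.76-fold by day 2 without inducer (log2 change -1.47, SE 0.38, adjusted p = 0.00874). The call was lost without fresh replicate 1 or control day 2 replicate 2 (adjusted p up to 0.0655, lowest size -1.39). By day 7 Wt1 fell by 1.58 under NGAL (SE 0.38, adjusted p = 0.00252) and by 1.08 under LIF (SE 0.38, adjusted p = 0.0405), whereas the ANX difference was -0.53 (95% interval -1.32 to 0.26, adjusted p = 0.361). The LIF call was lost without any 1 of its 4 arrays (adjusted p up to 0.161), and the NGAL value became -0.90 (adjusted p up to 0.121) without NGAL day 7 replicate 1. The LIF call was also lost with the dap ratio, a labelling measure described below, as a covariate (-0.80, adjusted p = 0.0981), and the NGAL call when only the arrays compared were fitted (adjusted p = 0.0648). From days 1 and 2 to days 5 and 7 the NGAL difference of -0.51 was not called, but without NGAL day 7 replicate 2 it was -0.85 (adjusted p = 0.0321). A second probe set of Wt1 differed in the same direction as the one used in all 14 comparisons, with -1.83 on control day 2 and -1.79 on NGAL day 7.

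Sall1, a zinc-finger repressor that marks the cap, stayed near its fresh level under LIF and ANX. Fresh tissue had 11.04 and 10.91, and uninduced cultures 10.42 and 11.15 on day 1 and 10.43 and 10.44 on day 2. The LIF cultures had 10.996 and 11.10 on day 1, 11.40 and 11.14 on day 2, 11.15 and 11.72 on day 3, 11.49 and 10.999 on day 4, 11.23 and 11.71 on day 5, and 11.40 and 11.07 on day 7. The ANX cultures had 10.95 and 10.89 on day 1, 11.01 and 10.82 on day 2, 11.39 and 10.76 on day 3, 11.32 and 11.50 on day 4, 11.47 and 11.61 on day 5, and 11.82 and 11.13 on day 7. None of these 24 arrays was below 10.76. The NGAL cultures had 10.82 and 11.16 on day 1, 10.53 and 10.70 on day 2, 9.25 and 11.09 on day 3, 10.13 and 10.92 on day 4, 10.87 and 10.79 on day 5, and 8.85 and 10.85 on day 7. Among them replicate 1 of day 3 and replicate 1 of day 7 stood at 9.25 and 8.85, the 2 lowest Sall1 arrays of the series.

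Eya1 followed almost the same course. Fresh tissue had 11.13 and 10.97, and uninduced cultures 10.56 and 11.29 on day 1 and 10.91 and 10.85 on day 2. With LIF the arrays read 11.09 and 11.24 on day 1, 11.56 and 11.74 on day 2, 11.84 and 11.86 on day 3, 11.76 and 10.86 on day 4, 11.61 and 11.76 on day 5, and 11.52 and 10.74 on day 7. With ANX the arrays read 11.08 and 11.06 on day 1, 11.23 and 11.24 on day 2, 11.64 and 10.56 on day 3, 11.63 and 11.71 on day 4, 11.60 and 11.66 on day 5, and 11.49 and 11.35 on day 7. On day 2 all 6 induced arrays lay between 11.22 and 11.74. With NGAL the arrays read 11.28 and 11.30 on day 1, 11.22 and 11.35 on day 2, 9.37 and 11.25 on day 3, 10.54 and 10.76 on day 4, 11.24 and 10.60 on day 5, and 8.29 and 10.62 on day 7. The same 2 NGAL arrays were again the lowest of the series, at 9.37 and 8.29.

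Neither Sall1 nor Eya1 passed the test against fresh tissue in uninduced culture, nor under LIF or ANX on day 7. Under NGAL on day 7 Eya1 fell by 1.59 (SE 0.51, adjusted p = 0.0179), and Sall1 differed by -1.13 (SE 0.47, adjusted p = 0.0667). Without NGAL day 7 replicate 1 the Eya1 change was -0.43 (adjusted p up to 0.549), and without either fresh array, or with only the arrays compared in the fit (adjusted p = 0.189), it also missed the threshold. Sall1 was called without NGAL day 7 replicate 2 (-2.13, adjusted p = 0.00123). Between the early and late NGAL days Eya1 fell by 1.10 (SE 0.36, adjusted p = 0.0485). That call was lost in 7 of 8 fits that left out 1 array, all but the one without NGAL day 7 replicate 2, and without NGAL day 7 replicate 1 the change was -0.52. It was also lost with no filter, with the mean of probe sets and with only the arrays compared (adjusted p = 0.0557, 0.0505 and 0.237). Sall1 differed by -0.47 over the same days, and by -0.97 without NGAL day 7 replicate 2 (adjusted p = 0.0332).

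Meox1, a homeobox gene of the early mesenchyme, was lowest late in NGAL culture. Fresh tissue had 9.73 and 9.54, and uninduced cultures 9.41 and 10.09 on day 1 and 9.45 and 8.73 on day 2, so that control and fresh arrays overlapped on day 1. The LIF cultures had 9.34 and 9.49 on day 1, 9.01 and 9.05 on day 2, 8.75 and 9.30 on day 3, 8.93 and 8.02 on day 4, 8.75 and 8.83 on day 5, and 9.58 and 7.67 on day 7. The ANX cultures had 9.13 and 9.77 on day 1, 8.75 and 8.50 on day 2, 8.68 and 8.90 on day 3, 8.66 and 8.68 on day 4, 8.49 and 9.73 on day 5, and 8.36 and 8.16 on day 7. Their replicates lay far apart on LIF day 7 and ANX day 5, where 1 array each was close to the fresh level. The NGAL cultures had 9.54 and 9.38 on day 1, 9.15 and 8.94 on day 2, 7.76 and 8.87 on day 3, 8.42 and 8.36 on day 4, 8.08 and 7.15 on day 5, and 7.83 and 7.09 on day 7. All 4 NGAL arrays of days 5 and 7 lay below all 4 of days 1 and 2, and the lowest 2 group means of the series were those of NGAL on days 5 and 7.

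Meox1 fell 4.51-fold under NGAL by day 7 relative to fresh tissue (log2 change -2.17, SE 0.47, adjusted p = 0.000969) and 3.28-fold from the early to the late NGAL days (-1.72, SE 0.33, adjusted p = 0.00126). These calls held in all 4 and all 8 fits that left out 1 array. Under ANX it fell by 1.37 by day 7 (SE 0.47, adjusted p = 0.0404), a call lost without any 1 of the 4 arrays (adjusted p up to 0.177) and with the dap covariate (-1.098, adjusted p = 0.0807). The LIF day 7 difference was -1.01 (SE 0.47, adjusted p = 0.12), and -1.97 (adjusted p = 0.00603) without LIF day 7 replicate 1. From early to late days the difference was -0.52 under LIF (95% interval -1.20 to 0.17) and -0.35 under ANX (-1.04 to 0.34), neither of them called.

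**Figure D1:**
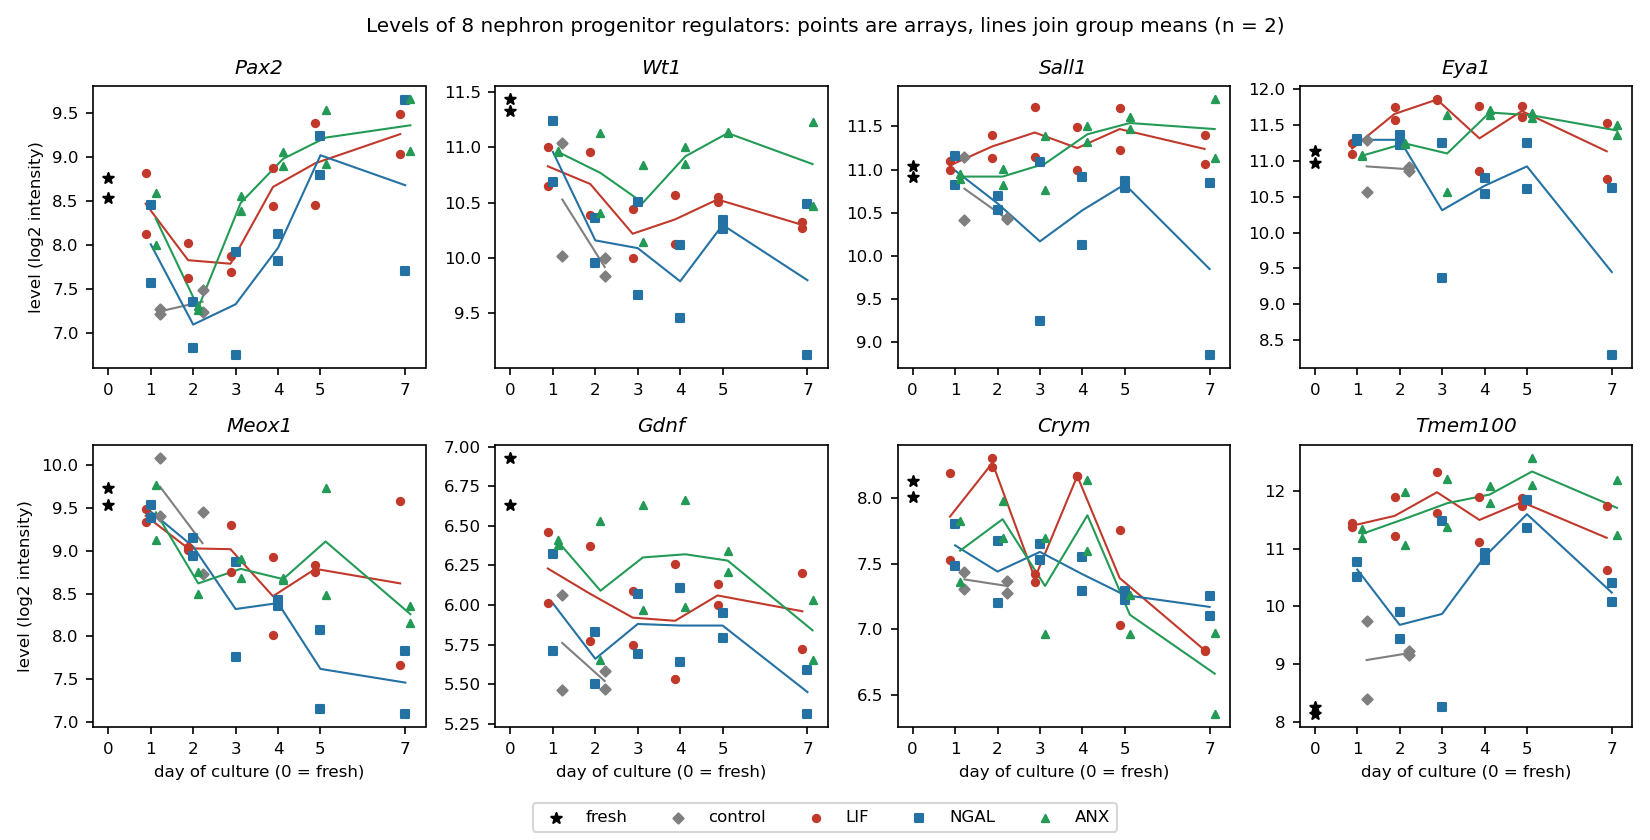
Levels of the 8 genes (vertical axes, log2 intensity, a separate scale per gene) against day of culture, with fresh tissue at day 0; points are arrays and lines join the means of 2 replicates. Pax2 is lowest around days 2 and 3 and higher later, Tmem100 is above both fresh arrays in every induced group mean, and 2 NGAL arrays on days 3 and 7 stand low for Sall1 (9.25 and 8.85) and Eya1 (9.37 and 8.29).

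Gdnf, the ligand of RET, had its highest mean in fresh tissue and was the gene with 4 group means below the threshold: control days 1 and 2 and NGAL days 2 and 7. Fresh tissue had 6.93 and 6.63, and no cultured array exceeded 6.66, the value of ANX day 4 replicate 1. Uninduced cultures had 5.46 and 6.06 on day 1 and 5.58 and 5.47 on day 2. With LIF the arrays read 6.46 and 6.01 on day 1, 6.37 and 5.77 on day 2, 5.75 and 6.09 on day 3, 6.26 and 5.53 on day 4, 6.13 and 5.995 on day 5, and 6.20 and 5.72 on day 7. All 12 lay below both fresh arrays. With NGAL the arrays read 5.71 and 6.32 on day 1, 5.83 and 5.50 on day 2, 5.69 and 6.07 on day 3, 5.64 and 6.11 on day 4, 5.79 and 5.95 on day 5, and 5.59 and 5.31 on day 7. With ANX the arrays read 6.38 and 6.41 on day 1, 6.53 and 5.65 on day 2, 6.63 and 5.97 on day 3, 6.66 and 5.99 on day 4, 6.34 and 6.21 on day 5, and 6.03 and 5.65 on day 7. In each of the 6 days the ANX mean was above the NGAL mean, and in 3 of them the arrays did not overlap. Between LIF and ANX, which gave no called difference over the 6 days, Pax2, Wt1 and Eya1 also had 3 such days.

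Gdnf fell 2.40-fold by day 2 without inducer (log2 change -1.26, SE 0.32, adjusted p = 0.00725). Since the day 2 mean was below the threshold, the change with that mean set to the threshold is -0.996. By day 7 it fell by 1.33 under NGAL (SE 0.32, adjusted p = 0.00235; -0.996 with the day 7 mean at the threshold) and by 0.95 under ANX (SE 0.32, adjusted p = 0.0379). Under LIF the day 7 difference was -0.82 (SE 0.32, adjusted p = 0.0626). The control day 2 call was lost without fresh replicate 1 or control day 2 replicate 2 (adjusted p up to 0.0749), and the ANX call without any 1 of its 4 arrays (up to 0.240). The control day 1 difference of -1.02 (adjusted p = 0.0572) passed without control day 1 replicate 2 (-1.33, adjusted p = 0.0496).

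Crym encodes mu-crystallin, a protein that binds thyroid hormone in the cytoplasm and is made in the cap mesenchyme. Fresh tissue had 8.13 and 8.01, and uninduced cultures 7.31 and 7.44 on day 1 and 7.37 and 7.28 on day 2, all 4 below the fresh arrays. The LIF cultures had 7.53 and 8.19 on day 1, 8.31 and 8.24 on day 2, 7.42 and 7.36 on day 3, 8.17 and 8.17 on day 4, 7.76 and 7.03 on day 5, and 6.84 and 6.83 on day 7. The ANX cultures had 7.36 and 7.83 on day 1, 7.70 and 7.98 on day 2, 7.70 and 6.96 on day 3, 8.14 and 7.60 on day 4, 7.26 and 6.96 on day 5, and 6.35 and 6.97 on day 7. Under both, days 2 and 4 were high, day 3 was lower, and day 7 was the lowest mean of the inducer. The NGAL cultures had 7.48 and 7.80 on day 1, 7.20 and 7.67 on day 2, 7.53 and 7.65 on day 3, 7.29 and 7.55 on day 4, 7.22 and 7.29 on day 5, and 7.10 and 7.25 on day 7, a narrow range of 7.10 to 7.80.

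Crym fell by 0.75 on control day 2 (SE 0.26, adjusted p = 0.0414), a call lost without any 1 of the 4 arrays (adjusted p up to 0.173). By day 7 it fell by 1.41 under ANX (SE 0.26, adjusted p = 0.000367), by 1.24 under LIF (SE 0.26, adjusted p = 0.00115) and by 0.90 under NGAL (SE 0.26, adjusted p = 0.00935). The NGAL value was lost without fresh replicate 1 or NGAL day 7 replicate 1 (adjusted p up to 0.0713), while the other 2 calls held in every fit that left out 1 array. Against uninduced control Crym rose 1.64-fold under LIF on days 1 and 2 (0.72, SE 0.18, adjusted p = 0.00671), and without LIF day 1 replicate 2 the change was 0.55 (adjusted p = 0.0503). From early to late days it fell by 0.95 under LIF (SE 0.18, adjusted p = 0.00200) and by 0.83 under ANX (SE 0.18, adjusted p = 0.00286). The NGAL difference was -0.32 (95% interval -0.70 to 0.06, adjusted p = 0.298).

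Tmem100, a small transmembrane protein best known downstream of BMP receptors in endothelial cells, was lowest in fresh tissue and had a difference of 4.15 between its highest and lowest group means. Fresh tissue had 8.25 and 8.13, and uninduced cultures 8.39 and 9.74 on day 1 and 9.23 and 9.16 on day 2. With LIF the arrays read 11.37 and 11.44 on day 1, 11.90 and 11.23 on day 2, 11.62 and 12.34 on day 3, 11.89 and 11.11 on day 4, 11.75 and 11.88 on day 5, and 11.74 and 10.63 on day 7. With ANX the arrays read 11.34 and 11.18 on day 1, 11.98 and 11.06 on day 2, 12.21 and 11.37 on day 3, 12.08 and 11.80 on day 4, 12.11 and 12.58 on day 5, and 12.19 and 11.24 on day 7. All 24 of these arrays lay above every control and fresh array. With NGAL the arrays read 10.51 and 10.77 on day 1, 9.44 and 9.91 on day 2, 8.25 and 11.49 on day 3, 10.80 and 10.93 on day 4, 11.85 and 11.36 on day 5, and 10.08 and 10.41 on day 7. Replicate 1 of NGAL day 3 was at the fresh level while its mate was 3.24 higher, the largest replicate gap of the 8 genes.

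On days 1 and 2 Tmem100 rose 5.12-fold over control under LIF (log2 change 2.36, SE 0.44, adjusted p = 0.00054) and 4.79-fold under ANX (2.26, SE 0.44, adjusted p = 0.000913). By day 7 it was 11.5-fold above fresh tissue under ANX (3.52, SE 0.62, adjusted p = 0.000224) and 7.99-fold under LIF (3.00, SE 0.62, adjusted p = 0.000969). These 4 calls held without any 1 array. Under NGAL the early difference was 1.03 (SE 0.44, adjusted p = 0.647), and on day 7 Tmem100 was up 4.15-fold (2.05, SE 0.62, adjusted p = 0.0121). The day 7 call was lost without either fresh array or without NGAL day 7 replicate 2 (adjusted p up to 0.0671). A second, dimmer probe set gave smaller differences, 0.88 for early LIF, 0.54 for early ANX and 1.20 for ANX on day 7. Endothelial genes went the other way: 11, 10 and 12 of 13 tested fell by day 7 under LIF, NGAL and ANX and none rose, among them Kdr, a VEGF receptor, by 3.85 under ANX (SE 0.39, adjusted p = 1.35e-07).

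The uninduced cultures were set against fresh tissue, from which they differed in medium and time and in the array measures given below. On day 1 without inducer 0 of the 8 genes were called by limma, against 3.80% of all 11388 tested genes called higher and 2.26% called lower; 4 of the 8 had an unadjusted p under 0.05, against 2640 of all genes. On day 2, 4 of 8 fell (Pax2, Wt1, Gdnf and Crym) and none rose, where 12.7% of all tested genes were called lower and 9.47% higher. The median difference of the 8 genes on day 2 was -0.64, against -0.05 over all tested genes. Beside them, 2 of 16 progenitor genes passed on day 2: Meox2, a relative of Meox1, fell by 2.39 (SE 0.51, adjusted p = 0.00186) and the adhesion molecule Ncam1 rose by 1.27 (SE 0.45, adjusted p = 0.0438). The log2 ratio of 3' to 5' signal for dap, an RNA added before labelling that shows how far labelling reached, was 1.97 and 2.04 on control day 2 and 1.06 and 1.08 in fresh tissue. The 5S rRNA signal was 10.1 and 10.3 against 6.32 and 6.62. With the dap ratio as a covariate Wt1 (-1.08, adjusted p = 0.0464) and Gdnf (-0.71, adjusted p = 0.00874) were still called, both with a smaller change than without it. Pax2 (-1.24, adjusted p = 0.0956) and Crym (-0.77, adjusted p = 0.0699) kept their size and missed the threshold, and Tmem100 was called higher (1.69, adjusted p = 0.0443, against 1.004 without the covariate). The part of the 5S signal was not tested.

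On days 1 and 2 each inducer was set against uninduced control. Under LIF 2 of 8 rose (Crym and Tmem100) and none fell, against 11.4% of all tested genes called higher and 12.6% lower. Under ANX 1 of 8 rose (Tmem100) and none fell, against 11.2% higher and 9.12% lower. Under NGAL 0 of 8 were called, against 0% higher and 0% lower in the same limma fit, where 1 of the 8 and 799 of all tested genes had an unadjusted p under 0.05. The median difference of the 8 genes was 0.54 under LIF, 0.22 under NGAL and 0.43 under ANX, and over all tested genes it was 0.03, 0.01 and 0.03. The 3 comparisons share the control arrays. Other cell types moved in the same days: of 18 renal stroma genes 10 fell under LIF and 9 fell and 1 rose under ANX, led in both by Rarb, a retinoic acid receptor (-1.51 and -1.48, SE 0.25 each, adjusted p = 0.000179 and 0.000264). Of 13 endothelial genes 7 fell under LIF, and 4 fell and 2 rose under ANX. Under NGAL none of either list was called, and the part of these cells in the early differences was not tested. For Pax2 the LIF arrays, from 7.63 to 8.82, lay above all control arrays, with a difference of 0.85 (95% interval 0.19 to 1.5, adjusted p = 0.0550); without LIF day 1 replicate 2 it was 1.02 (adjusted p = 0.0458).

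In control day 1 replicate 2 every one of the 8 genes stood above its level in replicate 1. Its dap ratio was 0.77, against 1.97 in replicate 1. Leaving that array out brought Wt1 past the threshold under LIF (0.78) and ANX (0.90). The same omission brought Gdnf past the threshold under ANX (0.75), as did leaving out ANX day 2 replicate 2 (0.82). The control arrays that remained had dap ratios from 1.97 to 2.04. With the dap ratio as a covariate over all arrays, Wt1 was not called under LIF (0.40) or ANX (0.47). The part of labelling in the gains without single arrays was not tested. The control means of Gdnf lie below the threshold, and with them set to it the ANX difference over all arrays was 0.46 in place of 0.60. Genes of the GDNF and RET signalling list moved as well on these days, while Ret itself had group means of only 5.92 to 6.32 in the whole series. Of 13 tested GDNF and RET signalling genes 3 rose and 2 fell under LIF, and 6 rose and 2 fell under ANX. Dusp6, a phosphatase that restrains ERK, rose by 1.06 under LIF (SE 0.20, adjusted p = 0.000623) and by 1.16 under ANX (SE 0.20, adjusted p = 0.000313). Spry1, a receptor tyrosine kinase antagonist, rose by 1.13 under ANX (SE 0.20, adjusted p = 0.000484). From the progenitor list, Meox2 rose by 1.39 under LIF (SE 0.36, adjusted p = 0.00690) and by 2.03 under ANX (SE 0.36, adjusted p = 0.000401). Whether Gdnf had a part in any of these changes was not tested.

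**Figure D2:**
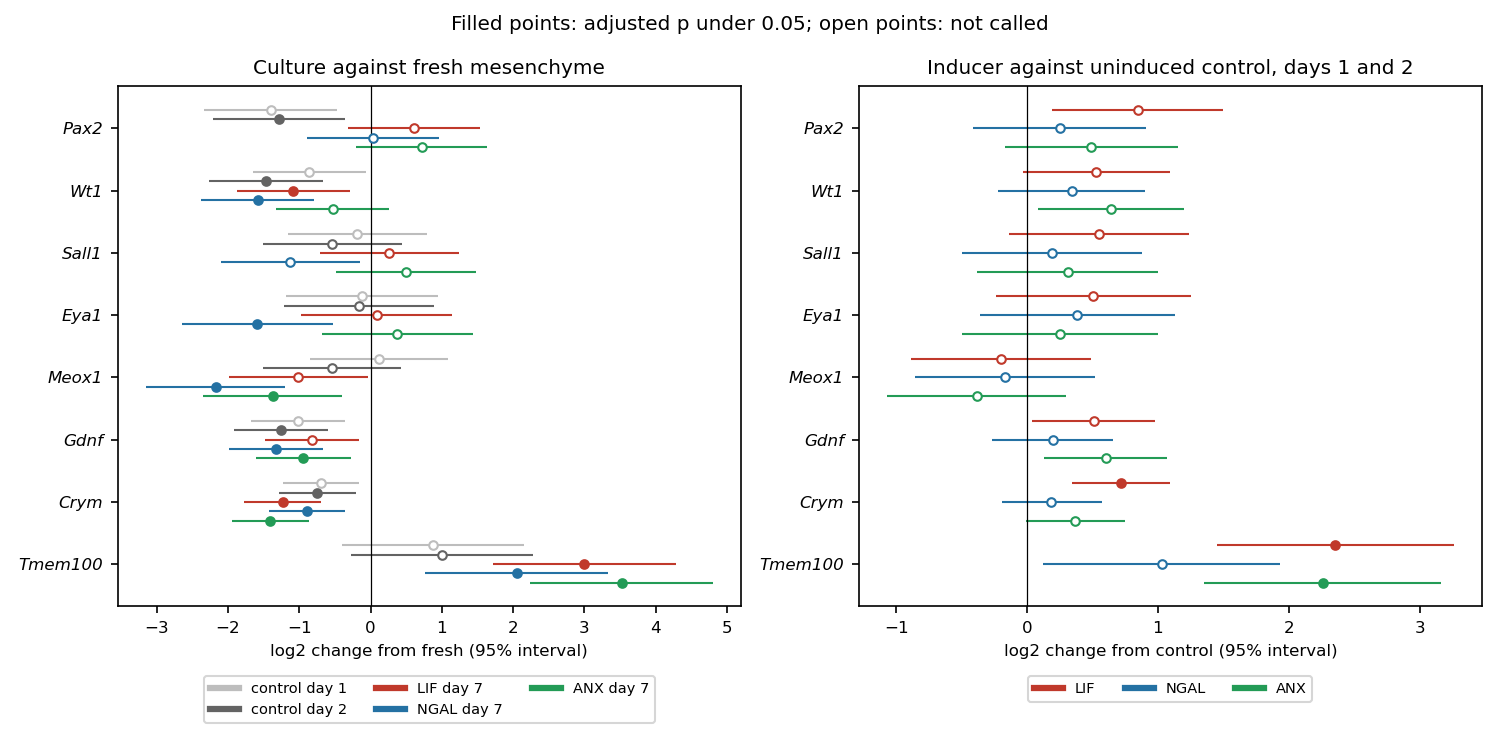
Log2 differences of the 8 genes from fresh tissue (left) and from uninduced control on days 1 and 2 (right), with 95% intervals of the limma fit; filled points have adjusted p under 0.05. Crym lies below fresh and Tmem100 above it in all 3 inducers on day 7, and against control Tmem100 is filled for LIF (2.36) and ANX (2.26) and open for NGAL (1.03).

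Each inducer on day 7 was set against fresh tissue. Under LIF 1 of 8 rose and 2 fell, against 11.3% of all tested genes called higher and 13.8% lower. Under NGAL 1 rose and 5 fell, against 16.0% higher and 19.4% lower. Under ANX 1 rose and 3 fell, against 10.4% higher and 10.1% lower. The gene that rose was Tmem100 in each case, and Crym was among those that fell in each case. These comparisons share the fresh arrays. The median difference was -0.37 under LIF, -1.23 under NGAL and -0.08 under ANX, against -0.03, -0.07 and -0.04 over all tested genes. The 2 low NGAL arrays (replicate 1 of days 3 and 7) were also left out, a choice made after the values were seen. The NGAL day 7 changes were then -2.54 for Meox1, -1.47 for Gdnf and 2.22 for Tmem100. Those of Wt1, Eya1 and Crym were -0.90, -0.43 and -0.83 and missed the threshold. In this fit 1 array stood for NGAL day 7.

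Other progenitor genes went both ways by day 7. Ncam1 rose by 1.33 under LIF (SE 0.45, adjusted p = 0.0314), by 1.47 under NGAL (SE 0.45, adjusted p = 0.0130) and by 1.33 under ANX (SE 0.45, adjusted p = 0.0372). Itga8, the integrin through which the mesenchyme answers nephronectin, fell by 1.09 under LIF (SE 0.36, adjusted p = 0.0290) and by 1.01 under NGAL (SE 0.36, adjusted p = 0.0329). Over the list of 16, 1 rose and 1 fell under LIF, 1 rose and 3 fell under NGAL, and 2 rose and none fell under ANX. Of the 13 GDNF and RET signalling genes 2, 1 and 1 rose and 2, 3 and 1 fell, in the same order. Gfra1, the co-receptor of Gdnf, fell by 1.15 under NGAL (SE 0.31, adjusted p = 0.00524).

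Within each inducer, days 5 and 7 were compared with days 1 and 2. Under LIF 1 of 8 fell (Crym) and none rose, against 4.22% of all tested genes called higher and 4.86% lower. Under NGAL 1 rose (Pax2) and 2 fell (Eya1 and Meox1), against 6.23% higher and 5.73% lower. Under ANX 1 rose (Pax2) and 1 fell (Crym), against 8.06% higher and 7.81% lower. Without the 2 low NGAL arrays Pax2 (1.78, adjusted p = 8.72e-05) and Meox1 (-1.90, adjusted p = 0.00127) were still called and Eya1 was not. The median difference of the members was -0.07, -0.39 and 0.25, and over all tested genes -0.03, -0.04 and -0.02. In the same days genes of nephron induction rose: 9 of 17 under LIF, 13 under NGAL and 8 under ANX, with 0, 1 and 1 falling. Jag1, a Notch ligand of the early vesicle, rose by 1.61, 2.99 and 2.03 (SE 0.26 each, adjusted p = 0.000359, 5.19e-08 and 1.13e-05). Ureteric bud genes, which include epithelial genes that young nephrons share, also rose over these days: 4, 5 and 7 of 13, with 0, 0 and 1 falling. Their mean level was 5.34 to 5.49 in fresh tissue and 6.28 to 7.60 in the day 7 arrays, and their part in the Pax2 rise was not tested. For Sall1 under ANX the late arrays lay above all early ones, but the difference of 0.59 was not called (adjusted p = 0.262).

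Whether the courses differed between inducers was tested on the difference itself. The moderated F-test of inducer by day called 0 of 8 genes (adjusted p = 1.0 for each, and none had an unadjusted p under 0.05), against 0.0351% of all tested genes; 660 of all genes had an unadjusted p under 0.05. The late minus early difference, a test added after the values were seen, called none of the 8 between LIF and NGAL (0.316% of all tested genes), LIF and ANX (0.0439%) or NGAL and ANX (2.79%). The members with the smallest p were Meox1 and Eya1 between NGAL and ANX (-1.37 and -1.48, adjusted p = 0.119 and 0.121). Unadjusted p was under 0.05 for 3 of 8 members between LIF and NGAL, none between LIF and ANX, and 3 between NGAL and ANX, and for 1412, 630 and 1913 of all genes.

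Averaged over the 6 days, NGAL cultures had lower levels of most of these genes than either of the others. Between LIF and NGAL 5 of 8 were higher under LIF and none lower, against 21.5% of all tested genes called higher and 20.3% lower. Tmem100 differed by 1.09 (SE 0.25, adjusted p = 0.00127), Eya1 by 0.82 (SE 0.21, adjusted p = 0.00304), Sall1 by 0.79 (SE 0.19, adjusted p = 0.00202), Meox1 by 0.51 (SE 0.19, adjusted p = 0.0358) and Pax2 by 0.47 (SE 0.18, adjusted p = 0.0428). Between NGAL and ANX 6 of 8 were lower under NGAL and none higher, against 22.2% of all tested genes called lower and 15.3% higher. Tmem100 differed by -1.28 (SE 0.25, adjusted p = 0.000442), Sall1 by -0.73 (SE 0.19, adjusted p = 0.00502), Eya1 by -0.70 (SE 0.21, adjusted p = 0.0107) and Wt1 by -0.67 (SE 0.16, adjusted p = 0.00192). Pax2 (-0.59, SE 0.18, adjusted p = 0.0150) and Gdnf (-0.41, SE 0.13, adjusted p = 0.0159) completed the 6, the Gdnf difference being -0.34 with means below the threshold set to it. The 2 comparisons share the NGAL arrays.

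By day, Sall1 and Tmem100 had a higher mean under LIF than under NGAL on 6 of 6 days, and on 5 of them the arrays did not overlap. The share of all genes with such gaps is not given here. For Tmem100 and Gdnf the NGAL mean was below the ANX mean on 6 of 6 days. On day 1, in contrast, the LIF and NGAL means of Sall1 differed by 0.06, of Eya1 by -0.12 and of Meox1 by -0.05. Restricted to days 1 and 2, none of the 5 differences between LIF and NGAL and none of the 6 between NGAL and ANX was called. Of all tested genes 4751 and 4273 were called over 6 days, but only 589 and 241 on days 1 and 2. The Tmem100 differences were as large there, 1.33 and -1.23 (adjusted p = 0.0772 and 0.155), as were Pax2 between LIF and NGAL (0.595, adjusted p = 0.297) and Gdnf between NGAL and ANX (-0.405, adjusted p = 0.400). Sall1 was smaller in both pairs (0.36 and -0.12), as was Eya1 between LIF and NGAL (0.12). Between NGAL and ANX, Wt1 (-0.30) and Pax2 (-0.24) were smaller and Eya1 changed sign (0.14). Meox1 changed sign between LIF and NGAL (-0.03). Without the 2 low NGAL arrays, Tmem100 (0.80), Sall1 (0.47) and Eya1 (0.47) stayed called between LIF and NGAL (adjusted p = 0.00233, 0.00512 and 0.00802). Between NGAL and ANX Wt1, Sall1, Eya1, Gdnf and Tmem100 stayed called (-0.49, -0.41, -0.35, -0.40 and -0.98; adjusted p up to 0.0484), and Pax2 was at -0.33 (adjusted p = 0.0983).

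Single arrays decided the weaker of these calls. Pax2 between LIF and NGAL was lost in 13 of 24 fits that left out 1 array (0.31 to 0.63, adjusted p up to 0.12): LIF replicate 1 of days 1, 2 and 3, LIF replicate 2 of days 3, 4, 5 and 7, and NGAL replicate 1 of any day. Meox1 was lost in 12 of 24 (0.35 to 0.67, adjusted p up to 0.0998): LIF replicate 2 of days 1, 2, 3 and 5, LIF replicate 1 of days 4 and 7, NGAL replicate 2 of days 1, 2, 4, 5 and 7, and NGAL replicate 1 of day 3. Between NGAL and ANX Meox1 (-0.44, adjusted p = 0.0767) passed without NGAL day 3 replicate 2, NGAL day 5 replicate 1 or ANX day 5 replicate 1 (-0.54 to -0.51, adjusted p up to 0.0453). Crym between LIF and NGAL (0.23, adjusted p = 0.0797) passed without LIF day 1 replicate 1, LIF day 5 replicate 2 or NGAL day 2 replicate 2 (0.27 to 0.30), and Wt1 (0.30, adjusted p = 0.133) passed without NGAL day 7 replicate 2 (0.41, adjusted p = 0.0223). The other 9 calls were kept in 24 of 24 such fits.

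LIF and ANX gave no called difference in the 8 genes, against 1.63% of all tested genes called higher under LIF and 3.37% lower. Unadjusted p was under 0.05 for 2 of them, Wt1 (-0.37, 95% interval -0.70 to -0.05) and Crym (0.25, 0.03 to 0.47), with adjusted p = 0.178 and 0.179, and for 2247 of all genes. The interval of the difference was -0.49 to 0.26 for Pax2, -0.34 to 0.46 for Sall1, -0.32 to 0.54 for Eya1 and -0.32 to 0.47 for Meox1. It was -0.45 to 0.09 for Gdnf and -0.71 to 0.34 for Tmem100, so differences inside these intervals remain possible. The second Tmem100 probe set had the opposite sign here, 0.48 against -0.18.

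**Figure D3:**
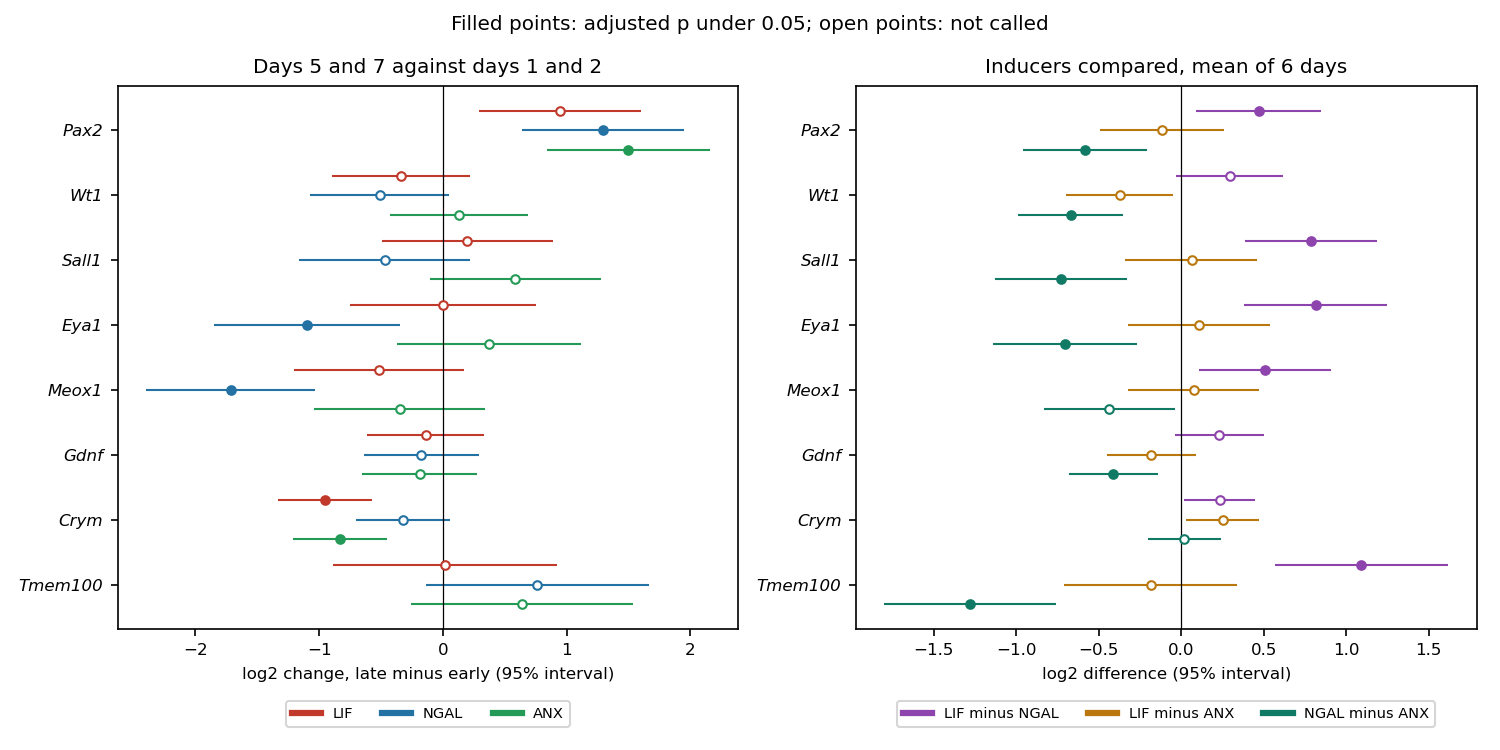
Log2 differences of the 8 genes between days 5 and 7 and days 1 and 2 within each inducer (left) and between inducers over 6 days (right), with 95% intervals of the limma fit; filled points have adjusted p under 0.05. Pax2 is filled to the right of 0 for NGAL (1.30) and ANX (1.499), Meox1 falls to -1.72 under NGAL, and no point is filled between LIF and ANX.

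Markers of other cells moved with the inducer pairs. Of 9 tested skeletal muscle genes 9 were higher under NGAL than under ANX and 7 higher than under LIF, with Myog, a myogenic factor, at 2.46 over ANX (SE 0.36, adjusted p = 2.35e-05). The mean level of the 9 genes was 9.22 to 10.95 in the 6 NGAL arrays of days 3, 4 and 5, and 6.56 to 9.60 in the LIF and ANX arrays of the same days. Of 18 renal stroma genes 13 were higher and 2 lower under NGAL than under ANX, led by Col1a2, a fibrillar collagen chain, at 1.59 (SE 0.19, adjusted p = 2.63e-06), and 14 of 18 were lower and 1 higher under LIF than under NGAL. Of 10 macrophage genes 7 were higher under NGAL in each pair and none lower, among them Lyz2, a lysozyme, at 1.07 over ANX (SE 0.18, adjusted p = 0.0001). The defining macrophage genes Csf1r and Ptprc stayed below the threshold, with highest group means of 5.6 and 4.71.

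The 2 NGAL arrays with low Sall1 and Eya1 were also the highest arrays of the series in macrophage and stroma level. Their mean macrophage level was 7.59 on day 3 and 7.31 on day 7, against 6.35 and 6.29 in their mates and 5.87 to 6.87 in all arrays of the fresh, control, LIF and ANX groups. Their stroma level was 9.45 and 9.41, against 9.01 and 8.90 in their mates. Control arrays reached 9.31 to 9.36 in stroma level and NGAL day 4 replicate 1 had 9.32, so the 2 arrays were the highest by a small margin. Muscle level was 9.98 in both arrays of NGAL day 3, and on day 7 it was 7.62 in the low array and 9.32 in its mate. The part of these cells in the lower level of the progenitor genes under NGAL was not tested.

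**Figure D4:**
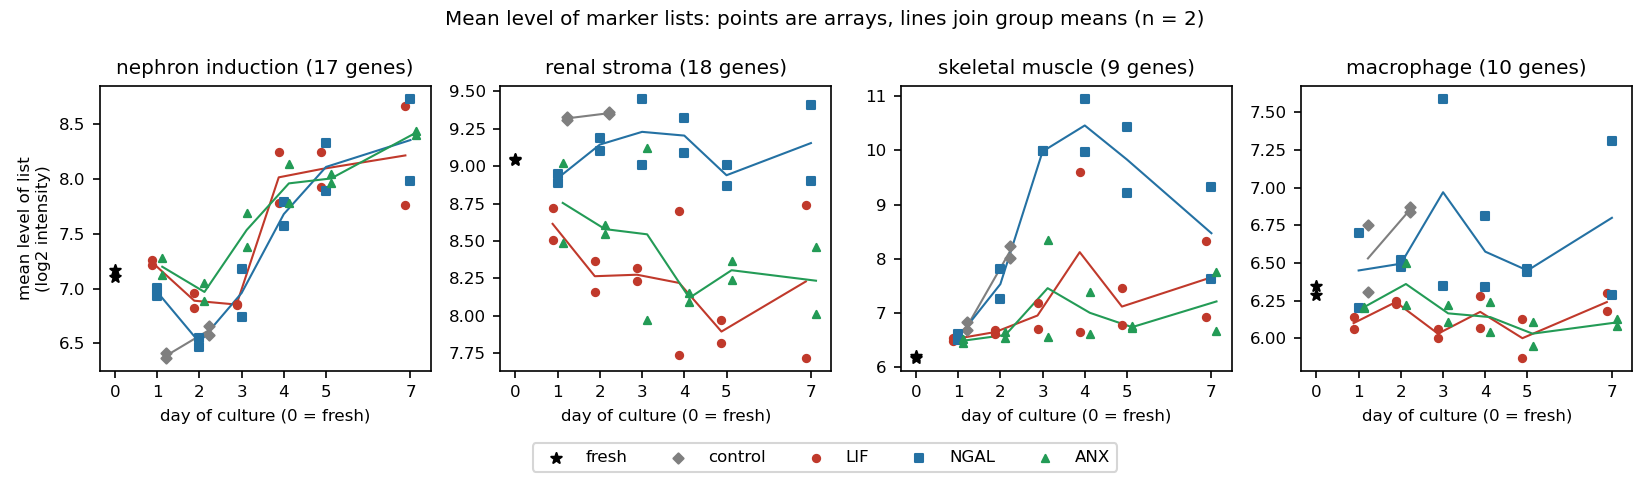
Mean log2 intensity of the tested genes of 4 marker lists (vertical axes) against day of culture, with fresh tissue at day 0; points are arrays and lines join the means of 2 replicates. Nephron induction genes climb under all 3 inducers after day 2 or 3, muscle genes peak under NGAL at 10.95, and 2 NGAL arrays stand apart for macrophage genes at 7.59 and 7.31.

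Genes of the progenitor and GDNF lists were called in the same comparisons, to be read beside the shares of all tested genes. Under NGAL relative to ANX 22.2% of all tested genes were called lower and 15.3% higher. Under LIF relative to NGAL 21.5% were higher and 20.3% lower, and relative to ANX 1.63% were higher and 3.37% lower. Of 16 other progenitor genes 6 were lower and none higher under NGAL than under ANX: Meox2 (-1.17, SE 0.21, adjusted p = 0.000142), Hoxa11 (-0.40, SE 0.09, adjusted p = 0.00156), Dach1 (-0.37, SE 0.09, adjusted p = 0.00256), Gas1, Bmp7 and Hoxa10, the last 3 named after their values were seen. Between LIF and NGAL 5 were higher and 3 lower under LIF, and Itga8 was 1.01 lower under LIF (log2 change -1.01, SE 0.15, adjusted p = 1.17e-05). The median of the list was -0.04 for NGAL against ANX and 0.14 for LIF against NGAL, near the -0.04 and 0.03 of all tested genes in the first and above it in the second. Of 13 GDNF and RET signalling genes 6 were lower and 2 higher under NGAL than under ANX, led by Etv5, an ETS factor downstream of RET and FGF receptors (-0.51, SE 0.09, adjusted p = 9.6e-05), and including Robo2, the Slit receptor that confines Gdnf (-0.74, SE 0.18, adjusted p = 0.00314). Between LIF and ANX 1 of these 13 genes, Spry1, was lower under LIF (-0.60, SE 0.12, adjusted p = 0.00347) and none was higher.

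The order of the 21 group means shows how far the replicates resolve each gene. Of the 20 neighbouring pairs in that order, the arrays overlapped in 20 for Sall1, in 19 each for Pax2, Wt1, Meox1 and Gdnf, in 17 for Crym, in 16 for Eya1 and in 15 for Tmem100. The steps that did not overlap included fresh tissue above the next group for Wt1 and Gdnf, and LIF day 3 above LIF day 5 for Eya1. For Tmem100 they set control day 1 above fresh tissue and NGAL day 2 above control day 2. The highest means were those of ANX day 7 for Pax2, fresh tissue for Wt1 and Gdnf, ANX day 5 for Sall1 and Tmem100, LIF day 3 for Eya1, control day 1 for Meox1 and LIF day 2 for Crym. NGAL day 7 was the lowest group for Sall1, Eya1, Meox1 and Gdnf, and NGAL day 7 also held the largest gap between replicates for Pax2 (1.94), Wt1 (1.37), Sall1 (2.00) and Eya1 (2.33).

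Across the 21 group means the 8 genes formed few close pairs, given here as a description over groups that share the culture medium and, for NGAL days 3 and 7, low arrays. Pearson's r was 0.912 for Sall1 with Eya1 and 0.817 for Wt1 with Gdnf. The pairs of Pax2 ran from -0.32 with Meox1 to 0.49 with Tmem100, and Crym reached no more than 0.42, with Gdnf. The tested gene most like Sall1 was Col9a1, a collagen chain (0.958), which also led for Eya1 (0.950), followed there by Robo2 (0.932) and Bmp7 (0.927). Pax2 was most like Spata13 (0.930), Map7 (0.914) and Klhl14 (0.910). Nearest to Wt1 were Ssrp1 (0.944), Morn4 (0.926) and Gpi (0.921), and nearest to Gdnf were Cse1l (0.929), Uba2 (0.924) and Eif4enif1 (0.922). Tmem100 was most like Sdc4, a syndecan (0.942), Nfkb1 (0.925) and Tnpo2 (0.923), and Meox1 most like Rimklb (0.910), Mapk12 (0.891) and Mov10 (0.888). For Crym the closest was Nipsnap3b at 0.811.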

How the data were processed

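Gene expression was measured in 42 samples of rat metanephric mesenchyme, 2 in each of 21 groups that the labels call biological replicates. The authors made the deposited linear intensity values by RMA (robust multichip analysis, a background correction, quantile normalization and summary of probes), per the submitters' processing notes, which give no version; array medians ran from 83.3 to 88.4. Per the platform table, 20832 of 31099 probe sets name 1 gene, 436 several and 9831 none. Log2 of the deposited values was fitted with limma 3.58.1 in R 4.3.3: a mean for each of the 21 groups over all 42 arrays, with 21 residual degrees of freedom and eBayes with a trend. A gene was represented by its probe set of highest mean and tested if at least 1 group mean lay above log2 5.79 (intensity 55.2), the 40th percentile over every value in the table. P-values were adjusted by Benjamini-Hochberg over 11388 genes within each of 15 comparisons, and a gene was called at adjusted p under 0.05. Every adjusted p in the text comes from limma fits. The main fit was run on simulated data with independent noise for some of the comparisons. The F-test, the late minus early test between inducers and the alternative fits were not simulated. The number of arrays limits the precision.

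The 8 genes and all lists were chosen with earlier results of these data known. Named besides the 8 were up to 3 genes of a list with the smallest adjusted p in a comparison, and the 3 genes of highest Pearson r with each over the 21 group means; not all are printed. Alternatives were other filters, probe set rules, normalization, covariates, arrays and days, a replicate block and each array left out. The fit without the 2 low NGAL arrays and the test of late minus early between inducers were added after the data were seen. Promoter windows came from RefSeq's GRCr8 table.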

Additional observations from a re-analysis of the deposited data

How the results depend on the processing

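Counts below are of the 8 genes called. Leaving out each array in turn gave 0 to 1 on control day 1 (0 with all arrays), 0 to 2 on control day 2 (4), 2 to 3 for early LIF (2), 0 to 0 for early NGAL (0), 1 to 3 for early ANX (1), 2 to 3 for LIF day 7 (3), 3 to 6 for NGAL day 7 (6) and 2 to 2 for ANX day 7 (4). Late against early gave 1 to 2 under LIF (1), 1 to 4 under NGAL (3) and 2 to 2 under ANX (2). The inducer pairs gave 3 to 5 for LIF and NGAL (5), 0 to 0 for LIF and ANX (0) and 6 to 7 for NGAL and ANX (6), and the F-test 0 to 0. Over 1408 such values of single genes, 1288 kept direction and side of the threshold, 69 calls were lost and 18 gained, and 33 uncalled values changed sign.

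Fitting only the arrays compared gave 2 on control day 1, 7 on control day 2, 5 for early LIF and 2 for early ANX. Of all 11388 tested genes these fits called 884, 5859, 3094 and 2794. Late against early gave 0, 1 and 4 under LIF, NGAL and ANX, where 338, 495 and 1493 of all genes were called. LIF against NGAL gave 3 and NGAL day 7 gave 4, where 4374 and 2641 of all genes were called. With the dap ratio as a covariate, control day 1 had 1, control day 2 3, early LIF 3, early ANX 2, LIF day 7 2, ANX day 7 3 and LIF against NGAL 7: Wt1 on LIF day 7 and Meox1 on ANX day 7 were lost, and Gdnf under early LIF and early ANX and Wt1 and Gdnf between LIF and NGAL gained. A second quantile normalization gave 1 on control day 1 and 2 for late LIF. Day 1 alone gave 1 for early LIF, and day 7 against day 1 gave 1 under ANX. On days 1 and 2 only, the pairs of NGAL with LIF and with ANX gave 0 and 0, and Meox1 (LIF minus NGAL, -0.031) and Eya1 (NGAL minus ANX, 0.14) changed sign. Without the 2 low NGAL arrays NGAL day 7 and LIF against NGAL had fewer than with all arrays. The cause was not tested. Gdnf did not pass the filter at the 60th percentile and has no value there.

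The replicate block gave 2 on control day 1, for early ANX and for late LIF, 3 for early LIF and 4 for LIF day 7. The labels do not say whether the numbers pair samples across groups. Deviations from group means correlated from -0.646 to 0.742 over 210 pairs of groups (median 0.065), with 88 above 0.1 and 53 below -0.1. On day 2 the dap ratio was 2.16, 2.15 and 2.35 in replicate 2 under LIF, NGAL and ANX, against 0.88, 1.48 and 1.05 in replicate 1. Day 7 showed the same direction, but not every day did. Whether replicates shared handling was not tested.

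Counts of all genes called moved by over 1.5 times from 2527 to 5859 (only the arrays compared) and 1673 (dap covariate) on control day 2, from 2853 to 1213, from 4034 to 2641, from 1035 to 338, from 1362 to 495 and from 570 to 314 (only the arrays compared: LIF day 7, NGAL day 7, late LIF, late NGAL, LIF against ANX), and from 4034 to 2480 and 1362 to 901 without the 2 NGAL arrays. Early LIF went from 2733 to 949 and 927 and early ANX from 2309 to 740 and 599 on day 1 or day 2 alone. On days 1 and 2 only, the pairs went from 4751 to 589, 570 to 71 and 4273 to 241, and LIF against ANX had 257 on the later days only. Early NGAL had 0 and at most 17 in any of these fits, and the F-test 4 and 0 to 72. Leaving out 1 array gave 180 to 504 on control day 1 (690), 917 to 1185 on control day 2, 1528 to 2842 for early LIF, 1115 to 2579 for early ANX, 1590 to 2419, 2391 to 3709 and 1238 to 1810 (2331) on LIF, NGAL and ANX day 7, 465 to 1186, 744 to 1663 and 1148 to 1610 (1807) late against early, and 4188 to 5070, 291 to 976 and 3469 to 4609 for the pairs.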

Other observations

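Lists not described with the comparisons had the counts below, given with the shares of all tested genes. Of 10 tested podocyte genes, the cells in which Wt1 is later kept, 2 rose and 1 fell on control day 2, among them Ptpro, a podocyte phosphatase, by 2.15 and Synpo, an actin-binding protein, by 1.82, while Wt1 itself fell. Of all tested genes 9.47% were called higher and 12.7% lower on control day 2. Between LIF and NGAL 1 podocyte gene was higher and 5 lower under LIF, against 21.5% of all tested genes higher and 20.3% lower. By day 7, 1, 1 and 2 of the 10 had risen and 2, 2 and 1 fallen under LIF, NGAL and ANX. The shares of all tested genes were 11.3%, 16.0% and 10.4% higher and 13.8%, 19.4% and 10.1% lower. Of 7 tested neuronal genes 2 rose under early LIF and 2 under early ANX, and none fell. Of all tested genes 11.4% and 11.2% were called higher there, and 12.6% and 9.12% lower.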
